A study of Mus musculus with 15 samples.

Results

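The genes of the ubiquitin conjugation and deubiquitination machinery were followed in ventricular cardiomyocytes, the contracting muscle cells of the heart, isolated from neonatal and adult mice. Members were all rows of the expression table whose symbol began with Uba and a digit, Ube2, Usp and a digit, Uchl or Otud, with Usp18 left out. This gave 89 of 9666 listed genes: 6 activating enzymes (E1), 31 conjugating enzymes (E2), 39 ubiquitin-specific proteases (USP), 4 ubiquitin C-terminal hydrolases (UCH), 6 OTU-domain proteases (OTUD), and 3 genes that share the naming pattern but encode no enzyme of the pathway. All mice were wild type on the C57BL/6 strain and received no treatment named in the labels. Hearts were taken on postnatal day 1 (P1, 4 libraries), on postnatal day 3 (P3, 4 libraries) and at 8 to 12 weeks (adult, 7 libraries), in a study of candidate mediators of heart muscle regeneration. The labels do not say whether each library came from a separate animal or a pool, and the p-values therefore reflect only how far these libraries vary, which may be technical in part.

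Ubiquitin is a small protein that is attached to other proteins in a cascade. An E1 activates it with ATP, an E2 receives it from the E1, and an E3 ligase brings the E2 to the substrate, where chains of ubiquitin mark the protein for the proteasome or change its location or activity. Deubiquitinases remove ubiquitin again or recycle chains, and related enzymes handle the modifiers SUMO, NEDD8, UFM1 and ISG15. In heart muscle this machinery is known for the turnover of contractile proteins and for quality control of proteins and mitochondria.

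Levels were deposited as RPKM, read counts scaled to gene length and to the mapped reads of the library. Adult libraries were shallower: reads in genes whose whole-read steps could be recovered numbered 1308810 to 1533263 in adult replicates 1 to 4, 3248087 to 3393997 in adult replicates 5 to 7, 4314788 to 4571506 at P1 and 4223291 to 6066580 at P3. On the deposited scale the mean of the library medians was 1.45 higher in log2 at P1 and 1.55 higher at P3 than in adult. Each change below is therefore given after subtracting the median of each library, written as relative to the median gene, unless it is called a deposited change. Summed RPKM of 8 cardiomyocyte markers was 14716 to 28151 in adult, 4821 to 11538 at P1 and 550 to 4777 at P3. Relative to the median gene their mean log2 level was 7.53 to 8.23 in adult. It was 4.11 in P1 replicate 1 against 5.38 to 5.56 in the other P1 libraries, and 4.21 in P3 replicate 1 against 1.86 to 2.45 in the other P3 libraries. P1 replicate 1 and P3 replicate 1 were thus closer to each other in these markers than to their own groups; whether their labels were exchanged was not tested, and the labels do not settle it. Endothelial markers (10 of 12 listed) summed to 2.91 to 219 RPKM in adult, 214 to 488 at P1 and 719 to 1687 at P3, and fibroblast markers (4 of 8 listed) to 0.92 to 68.5, 158 to 1331 and 367 to 791, with P1 replicate 1 the highest of all. Mural markers (3 of 7 listed) summed to 19.4 to 98.3 RPKM in adult, 110 to 503 at P1 and 407 to 711 at P3. In that order, mean RPKM was 27.4, 326 and 495 for Acta2 but 23.7, 4.27 and 8.71 for Rgs5. Relative to the median gene the mural mean log2 level overlapped between stages (-0.35 to 1.60, -0.56 to 0.84 and 0.36 to 1.20). The endothelial level was -2.32 to 2.25, 0.88 to 1.94 and 2.35 to 3.70. Endothelial and fibroblast levels thus overlapped adult at P1 and lay above it at P3. For immune and erythroid markers, 0 of 7 and 0 of 7 were rows of the table. In bulk RNA, fewer cells of a type and less RNA per cell cannot be told apart.

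Most members were higher in the neonatal libraries on the deposited scale, as were most genes. A member was called when limma's test on log2(RPKM + 0.5) gave a Benjamini-Hochberg adjusted p under 0.05 over all 9389 genes tested and a log2 change of at least 1. Genes entered the test where 4 or more libraries reached an RPKM of 1, which held for 87 members and not for Uchl4 and Usp11. At P1, 69 of 87 members were called higher than adult and 0 lower on the deposited scale, where 62.7% of all genes were called higher and 4.32% lower. At P3 the counts were 65 higher and 2 lower, against 62.7% and 9.16% of all genes. The median deposited change of the members was 1.55 at P1 and 1.56 at P3, beside 1.36 and 1.48 for all genes. Of the 87, 70 had all 4 P1 libraries above all 7 adult ones and 1 had them below (65.1% and 4.86% of all genes), and the counts at P3 were also 70 above and 1 below (64.3% and 7.99%).

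The members divided after library medians were subtracted. At P1, 6 members rose against adult and 7 fell (background 13.7% and 21.6% of all genes), with a member median of 0.10 beside -0.09 for all genes. At P3, 16 rose and 14 fell (background 19.1% and 27.1%), with medians of 0.01 and -0.07. Between P1 and P3, 0 members rose and 4 fell (background 1.18% and 7.54%), and on the deposited scale 0 rose and 3 fell (1.4% and 5.31%). The P1 libraries lay wholly above adult relative to the median gene for 19 of the 87 members and below for 10 (20.6% and 28.1% of all genes), and the P3 libraries above for 23 and below for 15 (25.2% and 31.7%). The 2 comparisons with adult share the adult libraries, so their likeness is not independent. Rises called under each of 6 scalings numbered 6 at P1, among them Uba2, Uchl1, Usp22, Usp39 and Usp6nl. At P3 there were 16 such members, among them those same genes with Ube2l6, Ube2z, Usp7 and Usp31. Falls called under each scaling were 0 at P1, Usp13 and Usp2 at P3 against adult, and Usp13, Usp20 and Usp28 at P3 against P1. The deposited scale, which is 1 of the 6, moves most changes from adult upward. It therefore removed none of the rises called relative to the median gene and most of the falls. These counts of rises and falls against adult cannot be compared, and the matching share of all genes is not given here.

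**Figure D1:**
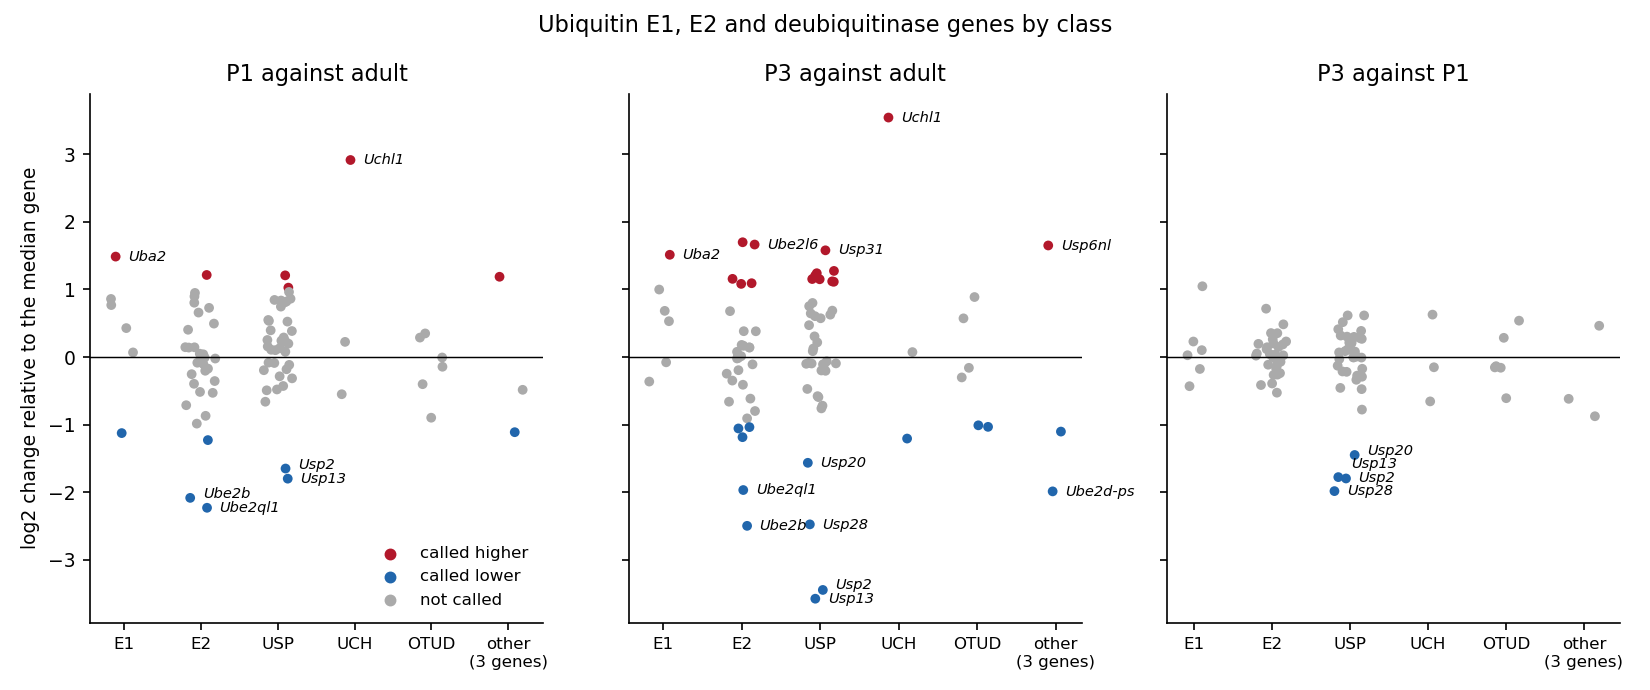
Log2 change relative to the median gene (vertical axis) of each tested member by class (horizontal axis), in 1 panel for each of the 3 pairs of stages. Each point is 1 gene, red where called higher, blue where called lower and grey where not called, and sideways spread within a class has no meaning; Uchl1 stands highest against adult and Usp13, Usp2, Usp28 and Usp20 are the 4 called points at P3 against P1.

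Among the activating enzymes, the SUMO E1 subunit Uba2 rose, and both ubiquitin E1s were higher but short of the size of a call. Uba1 is the main E1 for ubiquitin and had one of the highest levels of all members (X chromosome, 20658326 to 20683179, mm10, protein coding). Its RPKM was 10.2 at the lowest, 19.7 at the median and 24.5 at the highest in adult, 85.5, 92.9, 90.9 and 86.2 at P1, and 89.8, 97.8, 80.2 and 70.3 at P3. Every neonatal library lay above every adult one, yet the change relative to the median gene was 0.86 ± 0.16 (SE) at P1 and 0.68 ± 0.16 at P3, below the size needed for a call. Uba6, the other ubiquitin E1, was far lower, at 0.744 ± 0.188 RPKM (SD, n = 7) in adult, 5.25 ± 0.442 (n = 4) at P1 and 6.77 ± 1.29 (n = 4) at P3, with changes of 0.77 and 1.00 that were not called. The P3 change of Uba6 lay at the threshold: it was called without adult replicate 1, 2 or 3 or P3 replicate 1. Uba6 was also called at both stages with a pseudocount of 0.1 or with adult replicates 5 to 7 only, and Uba1 was called at P1 with adult replicates 1 to 4 only.

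Uba2 is the catalytic subunit of the SUMO E1 (chromosome 7, 34140688 to 34169599). Its RPKM was 2.75, 4.47 and 7.13 at the lowest, median and highest in adult, 40.5, 33.7, 36.1 and 38.4 at P1, and 38.6, 42.4, 41.3 and 39.2 at P3. The adult and neonatal libraries did not overlap and the P1 and P3 libraries did. The rise was 2.80-fold at P1 and 2.85-fold at P3 relative to the median gene (limma adjusted p = 5.3e-08 and 1.8e-08), and the exact permutation test over libraries gave its smallest possible p of 0.00303 for both. Uba3, which activates NEDD8 (chromosome 6), was 12.5 ± 1.53 RPKM in adult, 36.8 ± 4.97 at P1 and 29.3 ± 6.07 at P3. Its deposited changes of 1.52 and 1.18 were called higher, while relative to the median gene it changed by 0.07 and -0.36, not called, and the P3 change also turned negative under quantile and median-of-ratios scaling. The share of a gene in the summed RPKM of its class does not depend on the library scaling. By that measure Uba2 made up 11.1% ± 1.91 of E1 RPKM in adult, 20.3% ± 1.66 at P1 and 22.3% ± 1.24 at P3, while Uba3 made up 31.7% ± 7.22, 20.1% ± 2.61 and 16.1% ± 2.91. For both genes the adult shares lay apart from all neonatal shares, and Uba1 kept overlapping shares of 44.3% ± 8.24, 48.5% ± 1.89 and 46.4% ± 4.14.

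Uba7, the ISG15 E1, was low and uneven: 0.371, 1.05 and 2.87 RPKM at the lowest, median and highest in adult, 1.26, 0.510, 1.80 and 2.05 at P1, and 1.00, 2.47, 3.57 and 13.1 at P3. The groups overlapped, and P3 replicate 4 stood above all other libraries. Its fall at P1 (-1.12, adjusted p = 0.037) was not called without adult replicate 1, 4, 5 or 6 or without P1 replicate 1 or 2 (adjusted p 0.0513 to 0.141, changes -0.84 to -1.13), and on the deposited scale it was 0.33 higher. Its deposited rise at P3, 1.47, was 0.87 without P3 replicate 4.

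Ube2b had the largest fall of the conjugating enzymes at P3 relative to the median gene; it is a RAD6-type E2 that acts on histone H2B and in DNA repair (chromosome 11, 51985497 to 52000762). Its RPKM was 65.8, 78.2 and 83.3 at the lowest, median and highest in adult, 46.6, 52.3, 56.9 and 44.8 at P1, and 55.8, 36.0, 39.2 and 32.2 at P3. All 8 neonatal libraries lay below all 7 adult ones, which held for no other tested member on the deposited scale in either comparison with adult. Relative to the median gene it fell by 2.08 ± 0.18 at P1 and by 2.50 ± 0.18 at P3 (limma adjusted p = 5e-08 and 2.8e-09), and on the deposited scale by 0.63 and 0.95, below the size of a call. It was the largest E2 share in adult, at 20.9% ± 3.00 of E2 RPKM, and 5.84% ± 0.918 at P1 and 4.49% ± 0.62 at P3. Ube2a, its close relative, did not pass: the change was -0.52 at P1 and -0.91 at P3. The ratio of Ube2b to Ube2a within a library, a pair chosen after the values were seen, was 4.30 to 8.14 in adult, 1.79 to 2.41 at P1 and 1.85 to 2.36 at P3.

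**Figure D2:**
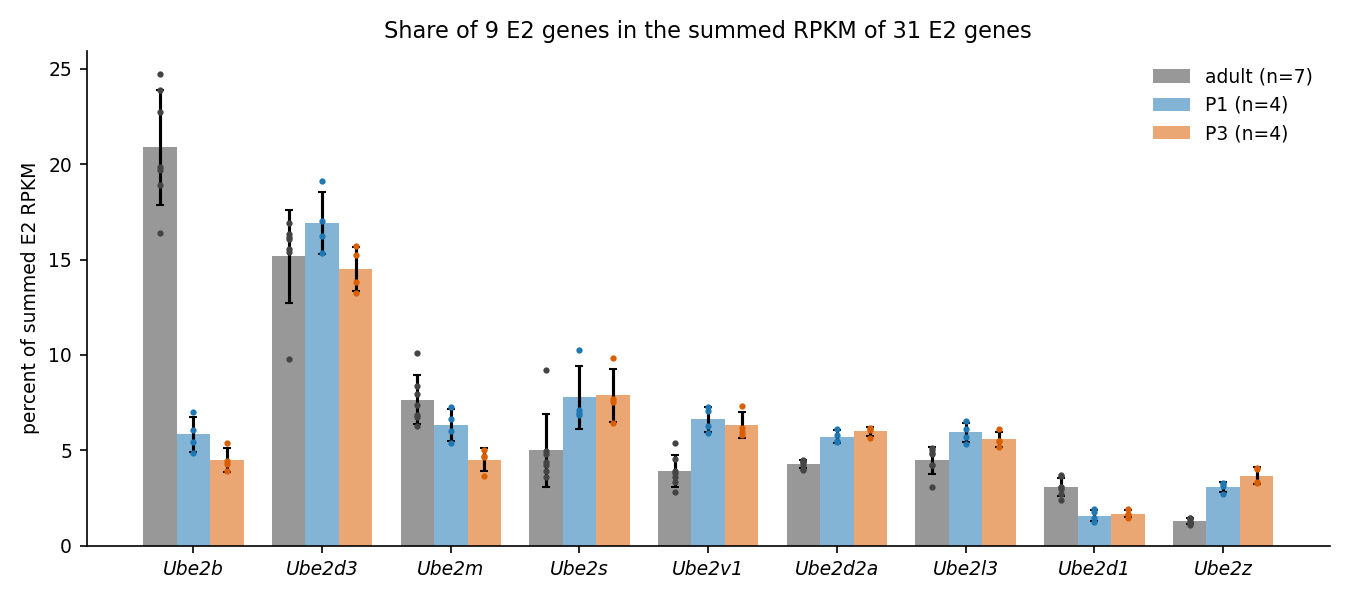
Share of 9 of the 31 E2 genes in the summed E2 RPKM of each library (vertical axis, percent), by gene and stage. Bars are means, error bars are SD and dots are libraries (adult n = 7, P1 and P3 n = 4); Ube2b goes from 20.9% in adult to 5.84% and 4.49%, while Ube2d3 overlaps between stages.

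The Ube2d family, E2s that work with many E3 ligases, was mixed. Ube2d3 was the most abundant E2 at P1 and P3 (chromosome 3): 46.0, 56.2 and 66.0 RPKM at the lowest, median and highest in adult, 147, 140, 138 and 158 at P1, and 163, 122, 135 and 104 at P3. Adult and neonatal RPKM did not overlap, and the deposited rise of 1.37 and 1.20 became -0.08 and -0.35 relative to the median gene, not called. Ube2d2a was similar, with 0.14 and 0.17. Ube2d1 fell by 1.23 ± 0.14 at P1 and by 1.18 ± 0.14 at P3 relative to the median gene (adjusted p = 1.2e-06 and 9.5e-07, limma), and its deposited values overlapped: 7.63, 12.6 and 15.3 RPKM in adult, 13.8, 10.7, 14.2 and 15.7 at P1, and 17.4, 14.9, 13.1 and 14.3 at P3. Its direction therefore differs between scales, since the deposited changes were 0.22 and 0.36. Ube2d1 was 0.146 to 0.317 of Ube2d3 in adult and 0.0763 to 0.138 in the neonatal libraries, without overlap.

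Of the 3 genes for lysine-63 chains, which serve signalling and repair rather than degradation, 0 were called relative to the median gene. For this and the other E2 groups below, 13.7% of all genes rose and 21.6% fell at P1, and 19.1% and 27.1% at P3. Ube2n, the catalytic partner, was 6.65 ± 1.01 RPKM in adult, 19.9 ± 5.33 at P1 and 21.5 ± 2.84 at P3, with changes of 0.04 and 0.08. For its inactive partners the changes were 0.49 and 0.38 (Ube2v1, limma adjusted p = 0.014 and 0.046) and -0.25 and -0.11 (Ube2v2). Ube2v1 made up 3.92% ± 0.836 of E2 RPKM in adult, 6.63% ± 0.656 at P1 and 6.31% ± 0.689 at P3, with the adult libraries below all others. All 3 were called higher on the deposited scale, and Ube2v2 turned slightly negative there under other scalings. The 4 E2s of endoplasmic reticulum quality control had 1 call, a rise of Ube2j1 at P3 (1.16). The 3 Ube2e genes had 0 calls, with changes from -0.10 to 0.68 against adult. Ube2s, which extends chains with the anaphase-promoting complex in mitosis, was 19.5 ± 10.7 RPKM in adult, 68.1 ± 20.3 at P1 and 71.5 ± 18.2 at P3 and was not called (0.40 and 0.38), and Ube2t, an E2 of DNA crosslink repair, fell at P3 (-1.04), a call that was absent without adult replicate 4 (-0.996), P3 replicate 3 (-0.92) or P3 replicate 4 (-0.88) and whose deposited change was 0.51. Ube2z, an E2 charged by Uba6, rose at P3 by 1.09, after 0.90 at P1, which missed the size of a call, and its E2 share was 1.29% ± 0.154 in adult, 3.09% ± 0.251 at P1 and 3.67% ± 0.434 at P3. Ube2ql1 fell by 2.23 at P1 and by 1.97 at P3, from a low level of 1.29 ± 0.375 RPKM in adult, and its reads numbered 7 to 52 per library.

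Ube2m, an E2 of NEDD8, was 29.6 ± 9.63 RPKM in adult, 54.5 ± 6.01 at P1 and 40.8 ± 8.87 at P3 and fell relative to the median gene at P3 (-1.06), a call that was absent without adult replicate 4 (-0.98), P3 replicate 3 (-0.97) or P3 replicate 4 (-0.997). Its deposited change at P3 had the other sign, 0.49, not called. Ube2f, the other NEDD8 E2, was not called.

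Ube2l6, the E2 of ISG15 (chromosome 2), was 0.294, 0.902 and 3.79 RPKM at the lowest, median and highest in adult, 12.0, 5.27, 7.90 and 8.84 at P1, and 8.01, 14.0, 14.4 and 28.4 at P3. Neonatal libraries lay above adult ones on the deposited scale, and P3 replicate 4 was highest, as for Uba7. The groups overlapped after centring on the median gene. The P3 rise of Ube2l6 was 1.66 ± 0.37 (limma adjusted p = 0.00063), and the P1 change of 0.95 was not called. Against P1, the P3 level was 0.72 higher (adjusted p = 0.25, limma). P3 replicate 4 also had the highest endothelial marker level, 3.70 against 2.35 to 3.25 in the other P3 libraries; the part of this in Uba7 and Ube2l6 was not tested.

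**Figure D3:**
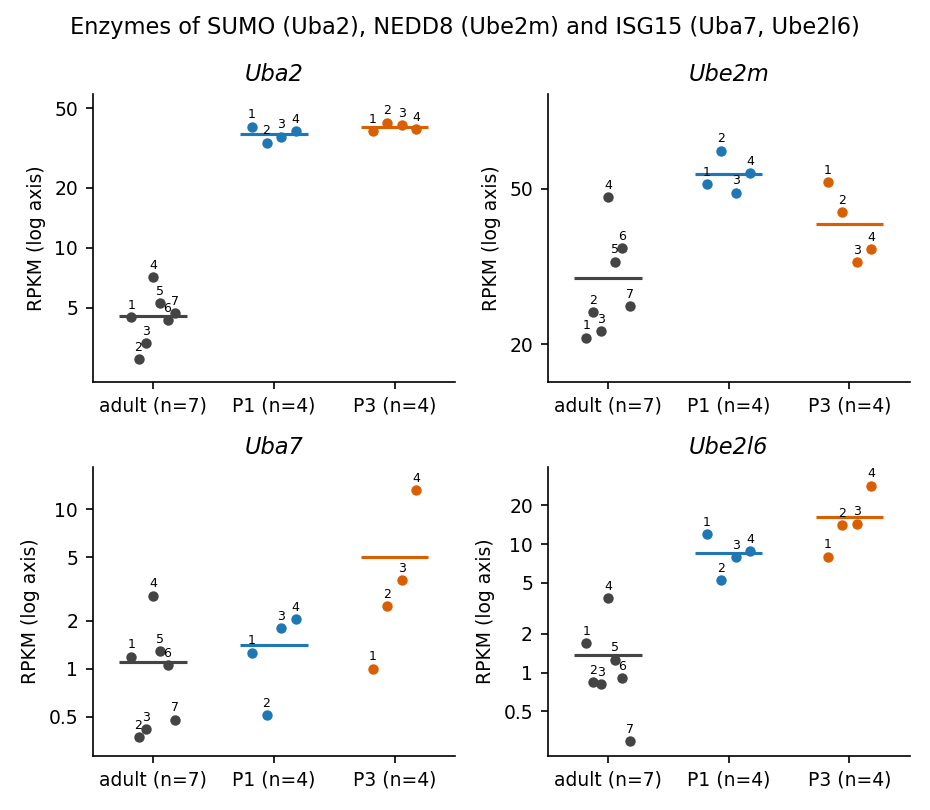
RPKM of the SUMO enzyme Uba2, the NEDD8 enzyme Ube2m and the ISG15 enzymes Uba7 and Ube2l6 in each library, on log axes, by stage. Points are libraries with their replicate number and lines are group means; Uba2 does not overlap between adult and neonatal libraries, and P3 replicate 4 is the highest point for Uba7 (13.1) and Ube2l6 (28.4).

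Of all members, Uchl1 rose most. This UCH enzyme, also known as PGP9.5, is best known as an abundant neuronal protein (chromosome 5, 66676091 to 66687234). Its RPKM was 0.890, 1.93 and 5.28 at the lowest, median and highest in adult, 58.2, 58.4, 40.5 and 52.3 at P1, and 105, 105, 68.8 and 71.1 at P3. The 3 stages did not overlap, in the order adult, P1, P3. Relative to the median gene the rise was 7.53-fold at P1 (2.91 ± 0.22) and 11.6-fold at P3 (3.54 ± 0.22), with limma adjusted p of 1.1e-08 and 5.5e-10. P3 exceeded P1 by 0.63 ± 0.25, which limma did not call (adjusted p = 0.093), while the exact permutation test gave 0.0286, the smallest p that 4 against 4 libraries allow. In adult replicates its reads numbered 10 to 49, and in neonatal ones 521 to 1644. Uchl1 made up 0.975% ± 0.626 of deubiquitinase RPKM in adult, 7.75% ± 1.82 at P1 and 12.5% ± 1.91 at P3, again without overlap.

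The other UCH genes did not follow. Uchl3, which also acts on NEDD8, was 14.9, 16.1 and 25.9 RPKM at the lowest, median and highest in adult, 31.2, 31.3, 39.5 and 28.6 at P1, and 37.8, 21.02, 15.2 and 18.7 at P3. Adult and P3 overlapped on the deposited scale (change 0.34), and relative to the median gene Uchl3 fell by 1.20 ± 0.21 at P3 (limma adjusted p = 6.3e-05), without overlap. That call was absent with adult replicates 5 to 7 only. The ratio of Uchl1 to Uchl3 within a library, also a pair chosen after the values were seen, was 0.0596 to 0.204 in adult, 1.03 to 1.87 at P1 and 2.79 to 4.99 at P3. Uchl5, a proteasome-bound deubiquitinase, was 5.32 ± 1.25 RPKM in adult, 17.9 ± 3.08 at P1 and 17.1 ± 2.52 at P3, with changes of 0.22 and 0.07, not called. Uchl4, an intronless near-copy of Uchl3 whose reads may be shared with it, was 0.200 to 1.78 RPKM in every library and was not tested.

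**Figure D4:**
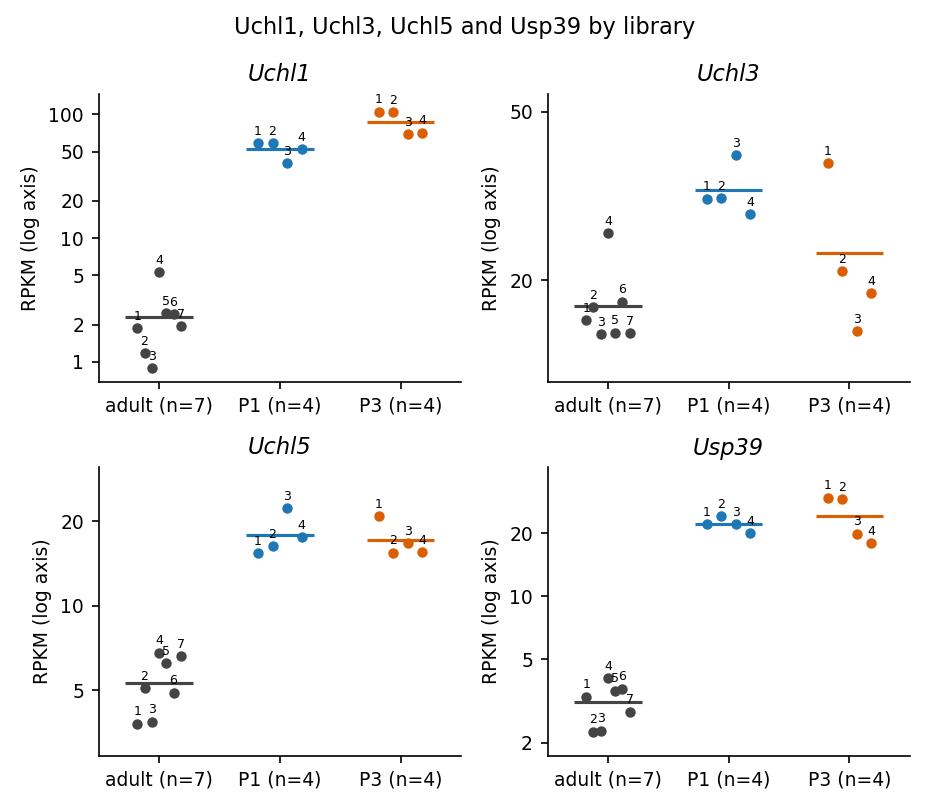
RPKM of Uchl1, Uchl3, Uchl5 and Usp39 in each library, on log axes, by stage. Points are libraries with their replicate number and lines are group means; Uchl1 runs from at most 5.28 in adult to at least 40.5 at P1 and at least 68.8 at P3, while P3 replicates 2 to 4 of Uchl3 fall within the adult range.

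Among the USPs the group that acts on chromatin and in the nucleus had 1 rise of 10 at P1 and 3 rises and 1 fall at P3. Of all genes, 13.7% rose and 21.6% fell at P1, and 19.1% rose and 27.1% fell at P3. These shares are also the background for the other USP counts below. The member that rose at both stages was Usp22, the histone deubiquitinase of the SAGA complex, at 2.14 ± 0.712 RPKM in adult, 13.8 ± 2.05 at P1 and 17.2 ± 2.17 at P3. Its changes were 1.03 and 1.24, and the P1 call, just past the threshold, was absent without adult replicate 2 or 4 or P1 replicate 2 or 3, with changes of 0.97 to 1.00. It was also absent with a pseudocount of 1 (0.93) and with adult replicates 5 to 7 only (0.83). At P3 it was joined by Usp7, which stabilises MDM2 and p53 (1.12), and Usp36, a nucleolar enzyme (1.15). Usp7 was not called with adult replicates 5 to 7 only (0.95), nor Usp36 with a pseudocount of 1 (0.94). Usp39, a splicing factor that lacks an active catalytic site (chromosome 6), was 2.26, 3.32 and 4.06 RPKM at the lowest, median and highest in adult, 22.1, 24.1, 22.1 and 20.05 at P1, and 29.5, 29.0, 19.9 and 17.9 at P3. Neonatal and adult libraries did not overlap, and the rise was 2.31-fold at P1 and 2.30-fold at P3 (limma adjusted p = 1.8e-06 and 9.7e-07). Of the 15 tested USPs in no named role group, 0 were called at P1 and 4 rose at P3: Usp12 (1.15), Usp31 (1.58), Usp34 (1.11, and 0.93 without adult replicate 4, not called) and Usp42 (1.27, and 0.87 with a pseudocount of 1, not called). The Usp12 call was absent with adult replicates 1 to 4 only and with replicate number added as a block. Usp34 was also not called with adult replicates 5 to 7 only. Usp31 was 0.310, 0.594 and 0.983 RPKM at the lowest, median and highest in adult, 5.74, 5.19, 5.26 and 4.36 at P1, and 7.01, 11.9, 12.2 and 5.51 at P3. Adult values lay below all others, and P1 and P3 overlapped.

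Usp5 and Usp14, which recycle free chains and trim chains at the proteasome, stayed near the median gene, with changes from -0.09 to 0.24 against adult. Of the 6 OTUD genes, 0 were called at P1, where 13.7% of all genes rose and 21.6% fell. At P3, where 27.1% of all genes fell, Otud1 (-1.01) and Otud6b (-1.03) fell, just past the threshold, while their deposited changes were 0.54 and 0.51. Otud1 was not called without adult replicate 1, 6 or 7 or P3 replicate 1 or 4 (changes of -0.68 to -1.03, limma adjusted p 0.0545 to 0.171), nor Otud6b without adult replicate 2 or 3 or P3 replicate 3 or 4 (-0.95 to -0.97). Otud1 was called higher at P1 on the deposited scale (1.05) but was -0.40 relative to the median gene.

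Usp13, Usp28, Usp2 and Usp20 were the members that fell from P1 to P3, and each was also lower at P3 than in adult. Usp13 is a relative of Usp5 and is known for deubiquitinating autophagy and endoplasmic reticulum quality control proteins; Usp28 stabilises MYC and takes part in the DNA damage response; Usp2 is a clock-controlled enzyme that acts on MDM2 and cyclin D1; and Usp20 acts on HIF1A and on receptors returning from endosomes. Relative to the median gene, Usp13 and Usp2 were also called lower at P1 than in adult, and Usp28 and Usp20 were not. Shared regulation was not tested. The 250 bases before each RefSeq transcription start are shown because all these members were called lower at P3 than P1, with Uchl1 for comparison. They are from RefSeq, build GRCm38.p6, plus strand, 5′ to 3′, with capitals marking a match to a MEF2 motif or to CCAAT on either strand.
Usp13, chr3:32817376-32817625: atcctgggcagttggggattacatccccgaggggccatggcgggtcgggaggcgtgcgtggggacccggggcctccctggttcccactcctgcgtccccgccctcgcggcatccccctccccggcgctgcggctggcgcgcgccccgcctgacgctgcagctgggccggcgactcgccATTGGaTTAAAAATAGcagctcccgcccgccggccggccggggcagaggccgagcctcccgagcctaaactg
Usp28, chr9:48985135-48985384: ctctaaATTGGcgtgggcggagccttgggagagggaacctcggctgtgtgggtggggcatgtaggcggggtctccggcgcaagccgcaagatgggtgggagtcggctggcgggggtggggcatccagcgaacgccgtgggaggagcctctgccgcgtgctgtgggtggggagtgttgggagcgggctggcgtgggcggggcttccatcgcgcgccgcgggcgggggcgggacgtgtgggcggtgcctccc
Usp2, chr9:44084670-44084919: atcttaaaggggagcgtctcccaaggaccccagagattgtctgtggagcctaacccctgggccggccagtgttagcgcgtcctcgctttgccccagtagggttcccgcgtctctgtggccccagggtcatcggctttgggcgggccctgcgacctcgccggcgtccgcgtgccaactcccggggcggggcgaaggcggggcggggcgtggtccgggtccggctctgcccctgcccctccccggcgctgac
Usp20, chr2:30982029-30982278: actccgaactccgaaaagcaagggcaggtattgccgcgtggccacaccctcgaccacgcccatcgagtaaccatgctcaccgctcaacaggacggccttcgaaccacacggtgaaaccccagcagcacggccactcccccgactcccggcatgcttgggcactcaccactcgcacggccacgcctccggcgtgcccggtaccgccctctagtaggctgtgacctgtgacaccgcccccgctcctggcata
Uchl1, chr5:66675871-66676120: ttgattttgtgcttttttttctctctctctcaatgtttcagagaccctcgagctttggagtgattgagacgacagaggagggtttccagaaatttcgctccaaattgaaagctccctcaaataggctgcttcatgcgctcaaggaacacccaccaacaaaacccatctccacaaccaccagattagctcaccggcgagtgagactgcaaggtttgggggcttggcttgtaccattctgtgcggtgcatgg
The Usp2 window lies inside the annotated gene (chromosome 9, 44067021 to 44095627), before an internal start. Relative to the GENCODE gene starts, the last 80 bases of the Usp13 window, with its motif matches, 10 of the Usp28 window and 30 of the Uchl1 window also lie inside the gene. The Usp13 window held a MEF2 match from 66 to 57 bases before the start, overlapping no CCAAT match, and CCAAT on the minus strand from 72 to 68 bases before it. The Usp28 window held CCAAT from 244 to 240 bases before the start. The other 3 windows held neither motif, and 3 more motifs had no match in any of the 5 windows: the E-box CACGTG, the nuclear receptor half-site AAGGTCA and the TATA box, TATAAA. Among 32851 RefSeq windows of the same length, 2.92% held a MEF2 match, 33.8% CCAAT, 6.02% CACGTG, 4.08% AAGGTCA and 12.4% TATAAA. Among 83 windows of the 68 members with an entry, 2 held MEF2 (Usp13 and Ube2l3), 15 CCAAT, 9 CACGTG, 0 AAGGTCA and 5 TATAAA. GC content was 73.6%, 73.2%, 71.6% and 65.6% in the windows of Usp13, Usp28, Usp2 and Usp20 and 48.8% in that of Uchl1, beside a median of 52.4% over all windows.

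Usp13 (chromosome 3, 32817546 to 32938071) was 14.0, 20.2 and 36.4 RPKM at the lowest, median and highest in adult, 7.33, 24.0, 24.8 and 18.04 at P1, and 15.3, 4.33, 3.12 and 2.58 at P3. P3 replicates 2 to 4 lay below every other library, while P3 replicate 1 lay within the adult range and P1 replicate 1 lay below it. Relative to the median gene Usp13 fell by 1.80 ± 0.39 at P1 and by 3.57 ± 0.39 at P3 against adult, without overlap in either comparison (limma adjusted p = 0.00073 and 3.6e-07), and by 1.77 ± 0.44 from P1 to P3 (adjusted p = 0.015). On the deposited scale the change was -0.35 at P1, not called, and -2.03 at P3. It made up 9.47% ± 1.69 of deubiquitinase RPKM in adult, the largest share there, 2.63% ± 0.992 at P1 and 0.874% ± 0.770 at P3.

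Usp28 (chromosome 9, 48985375 to 49042517) was 8.76, 12.2 and 19.6 RPKM in adult, 11.1, 27.6, 37.4 and 43.9 at P1, and 13.8, 7.11, 4.90 and 4.48 at P3. P1 replicates 2 to 4 lay above every adult library and P3 replicates 2 to 4 lay below, so its deposited change was positive at P1 (0.96) and negative at P3 (-0.93), neither called. After centring on the median gene it was -0.49 at P1, not called, and fell by 2.47 ± 0.32 at P3 against adult and by 1.98 ± 0.36 against P1 (limma adjusted p = 2.2e-06 and 0.0042). Its share of deubiquitinase RPKM was 5.87% ± 0.538, 4.29% ± 1.94 and 1.06% ± 0.519, with P3 below both other stages. The gap to P1 was narrow, at 1.85% in P1 replicate 1 against 1.82% in P3 replicate 1.

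Usp2 was 2.80, 8.39 and 16.7 RPKM in adult, 2.71, 9.21, 10.7 and 5.89 at P1, and 5.28, 2.34, 0.682 and 0.534 at P3. The groups overlapped on the deposited scale, and relative to the median gene Usp2 fell by 1.65 ± 0.45 at P1 and by 3.44 ± 0.45 at P3 against adult without overlap (limma adjusted p = 0.0039 and 2.5e-06). From P1 to P3 it fell by 1.79 ± 0.51 (adjusted p = 0.025, limma), with a deposited change of -1.70 that was not called (adjusted p = 0.06). Usp20, chosen for its values by library after its call was seen, was 2.41, 4.57 and 4.91 RPKM in adult, 4.55, 15.5, 12.8 and 10.3 at P1, and 7.98, 3.18, 2.30 and 2.63 at P3. P1 replicates 2 to 4 stood above all other libraries, and adult and P3 overlapped. It was called higher than adult at P1 on the deposited scale (1.34) but was -0.12 relative to the median gene, and it fell by 1.56 ± 0.29 at P3 against adult and by 1.45 ± 0.33 against P1 (limma adjusted p = 0.00012 and 0.0098).

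**Figure D5:**
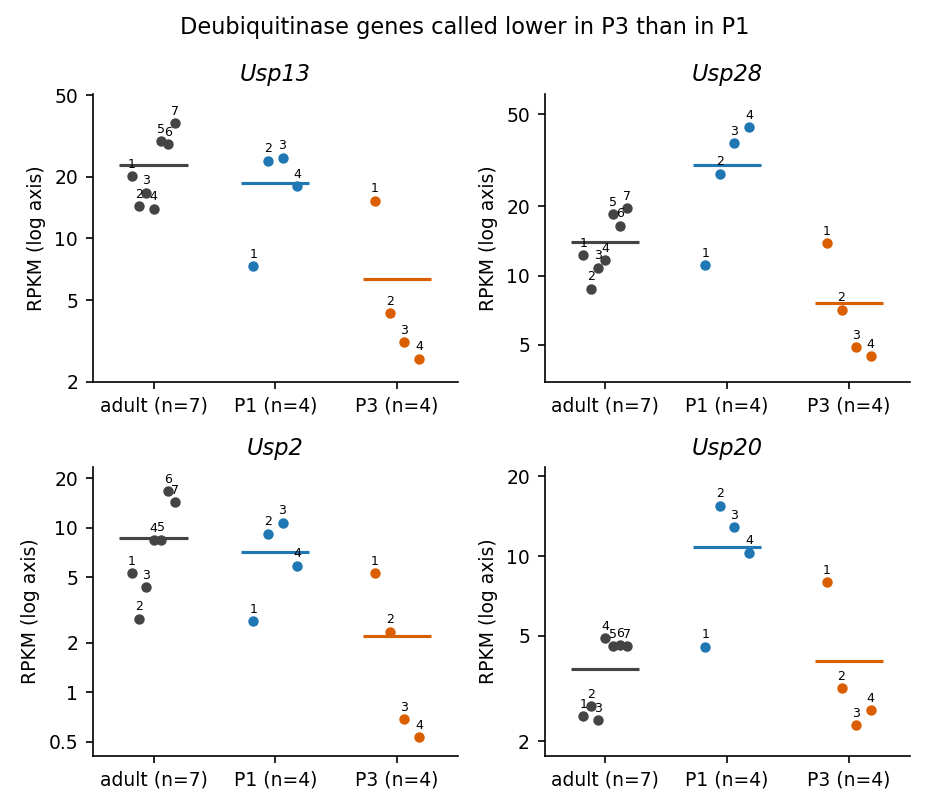
RPKM of Usp13, Usp28, Usp2 and Usp20 in each library, on log axes, by stage. Points are libraries with their replicate number and lines are group means; in each panel replicate 1 is the lowest P1 point and the highest P3 point, and for Usp13 it stands at 7.33 and 15.3.

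P1 and P3 overlapped for all 4 genes on both scales, and the exact permutation test over libraries gave p = 0.0571 for each, where 0.0286 is the smallest it allows. In each case P1 replicate 1 was the lowest P1 library and P3 replicate 1 the highest P3 library, the same 2 libraries that stood apart in the cardiomyocyte markers. Without both libraries, an alternative added after seeing the data, the changes were -2.65, -2.69, -2.62 and -2.12 for Usp13, Usp28, Usp2 and Usp20, all called. With P3 replicate 1 as the one P3 library, which is then assumed to vary like the other groups, the changes were -0.28, -1.08, -0.40 and -0.44. That fit called 0 of all 9389 genes between P1 and P3, so it gives no test of these 4. Measured against the mean of the 8 cardiomyocyte markers in the same library, the 4 genes were higher at P3 than at P1, by 0.75 for Usp13, 0.54 for Usp28, 0.73 for Usp2 and 1.08 for Usp20, with overlap for Usp28 and Usp2. Against the same markers they were higher at P3 than in adult, by 1.71, 2.81, 1.84 and 3.72, without overlap. Ube2b was likewise 2.79 higher at P3 than in adult on that measure, and Uchl1 8.82. The 8 markers themselves fell relative to the median gene, with a median change of -5.67 at P3 against adult and -2.52 against P1. A gene that kept pace with the median gene is therefore also higher on this measure, so a rise on it alone sets no gene apart.

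The calls of Usp13 and Usp2 from P1 to P3 relative to the median gene depended on single libraries. Without P1 replicate 2, P1 replicate 3, P3 replicate 3 or P3 replicate 4, limma's adjusted p was 0.0607, 0.054, 0.0653 and 0.0545 for Usp13 and 0.088, 0.0843, 0.0994 and 0.0806 for Usp2, with Usp2 at 0.0506 without P1 replicate 4. The changes in those fits were -1.51 to -1.62 for Usp13 and -1.46 to -1.83 for Usp2. Usp28 and Usp20 stayed called in each fit without 1 library on that scale, while on the deposited scale Usp28 was not called without P1 replicate 3 or P3 replicate 3 (adjusted p 0.0509 and 0.0598). On that scale Usp20 was called in neither the fits without P1 replicate 2, 3 or 4 (adjusted p 0.131, 0.106 and 0.073) nor those without P3 replicate 2, 3 or 4 (0.0875, 0.13 and 0.104), and Usp13 was lost in the same 6 fits (0.0761 to 0.129). With only the P1 and P3 libraries in the fit, Usp28 alone stayed called relative to the median gene (adjusted p = 0.0499, limma). On that scale Usp13, Usp2 and Usp20 did not (0.0636, 0.0693 and 0.0616). As deposited, that fit called no member.

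Groups that did not overlap between P1 and P3 were few. On the deposited scale 7 members lay above and 0 below (10.7% and 2.53% of all genes), and relative to the median gene 3 lay above, Uchl1, Usp3 and Usp33, and 2 below, Ube2m and Usp47 (4.91% and 5.51%). None of these was called by limma.

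The 3 members that are no enzymes of the pathway were kept in the counts. Usp6nl, a RabGAP of endosomal traffic, rose by 1.19 at P1 and 1.65 at P3, from 0.146 to 0.515 RPKM in adult to 3.62 to 4.97 at P1 and 5.45 to 8.12 at P3, and its P1 rise was 0.74 with a pseudocount of 1, not called. Ube2d-ps, a transcribed pseudogene with possible read sharing with the Ube2d genes, was 3.24 ± 1.09 RPKM in adult, 4.21 ± 1.05 at P1 and 2.32 ± 1.09 at P3; its fall relative to the median gene was 1.11 at P1, not called without P1 replicate 1 (-0.94), and 1.99 at P3.

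Other genes of the pathway were counted from lists, relative to the median gene. Of all genes, 13.7% were called higher and 21.6% lower at P1, and 19.1% and 27.1% at P3 against adult. From P1 to P3 the shares were 1.18% and 7.54%. Whether the lists differ from these shares was not tested. Of 20 tested deubiquitinases outside the naming rule, 1 rose and 1 fell at P1, 0 rose and 1 fell at P3, and 2 fell from P1 to P3; the most abundant, Psmd14, Cops5 and Otub1, were not called, with changes of 0.44, -0.11 and 0.75 at P1 and 0.18, -0.42 and 0.62 at P3. Named after their values were seen, Josd2 fell at both stages (-1.39 and -2.49) and from P1 to P3 (-1.10), Stambpl1 rose at P1 (1.13) and Otulin fell from P1 to P3 (-1.21). Of 12 ubiquitin and ubiquitin-like modifier genes, 1 was called at P1 and 0 at P3: Rps27a, a ubiquitin-ribosomal fusion, rose by 1.29 at P1 and was 0.90 at P3, beside 0.15 and 0.32 for polyubiquitin Ubb and 0.88 and 0.78 for Fau. The list of 9 other activating and conjugating genes had 1 fall at P1, and 1 rise and 2 falls at P3. Sae1, the partner of Uba2 in the SUMO E1, rose by 1.01 at P3 after 0.83 at P1, and Cdc34 fell by 1.37 at P3. The autophagy E2 Atg10, named after its values were seen, fell by 3.08 and by 3.71. Of 11 SUMO, NEDD8 and UFM1 proteases, 2 fell at P1, and 2 rose and 3 fell at P3; the most abundant were Senp3 (0.78 and 0.89), Senp6 (0.43 and 0.56) and Ufsp2 (-0.60, and a fall of 1.31 at P3).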

How the data were processed

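Total RNA of isolated ventricular cardiomyocytes was sequenced on Illumina libraries, and the authors deposited 1 RPKM table of 15 libraries; HISAT2, Partek 6.6 and mm10 are named per the submitters' processing notes, and the strand setting of the counting is not given in the sources used here. Every listed value was above 0.1. Groups were taken from the labels. Here limma 3.58.1 (R 4.3.3) was fitted to log2(RPKM + 0.5) over the 9389 of 9666 genes that reached an RPKM of 1 in 4 or more libraries, once as deposited and once after subtracting each library's median log2 value. Exact permutation tests over libraries were 2-sided. Whole reads were recovered for 8474 genes (87.7%, including 81 of 89 members), within a relative tolerance of 3e-05, by matching the steps of low values, and served as depth only. By-library values were given for the members of largest change, the most abundant, and the E1, lysine-63 and UCH genes; other members were named where called, and some members in the counts are not reported here by name. Members and lists were chosen with earlier results of these data known. Positions are from GENCODE for mm10. In simulated data with 9389 genes, planted log2 changes of 1.5 and 2 were called in 89% and 97% of planted genes at P1. The rates were 93% and 92% at P3, and 85% and 91% for P3 against P1. The simulation drew independent normal noise for each gene, with no shift between libraries and no outlying library. Its rates therefore need not hold for the comparisons made here. Python steps used numpy 2.4.6, pandas 2.3.3 and matplotlib 3.10.9.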

Additional observations from a re-analysis of the deposited data

Results flagged for a closer look

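In 10 of 111 groups examined over 37 members, 1 library stood far from the rest of its group; chance alone gives about 1 in 20. Adult replicate 4 was the highest adult library in 6 of them, with RPKM of 5.278 for Uchl1, 5.541 for Ube2d-ps, 3.791 for Ube2l6, 2.872 for Uba7, 25.87 for Uchl3 and 1.782 for Uchl4. That library had an RPKM sum of 280112 against 145050 to 195003 in the other adult libraries. It also had the highest adult endothelial, fibroblast and mural marker sums. These 6 values share 1 library and are not independent, and the part of its scale in them was not tested. P3 replicate 1 stood apart for Usp13 (15.3), Uba3 (38.3) and Usp20 (7.98). Adult replicate 1 was lowest for Ube2b (65.79).

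The change from adult differed between P3 and P1, by limma's test of P3 against P1 relative to the median gene, by -1.775 for Usp13, -1.795 for Usp2, -1.448 for Usp20 and -1.982 for Usp28 in log2.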

How the results depend on the processing

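Counts of members called depended most on scaling. Under quantile normalization 10 members were higher and 6 lower at P1 (17.5% and 18.1% of all genes) and 19 and 8 at P3 (24.9% and 23.2%). Under median-of-ratios scaling the counts were 12 and 7 (16.5% and 19.7%), and 18 and 12 (22.7% and 24.9%). With equal RPKM sums they were 38 and 3 at P1 (41.4% and 9.19%) and 47 and 4 at P3 (50% and 13.2%), and without the 100 highest genes 24 and 4 (31.2% and 12.3%), and 30 and 6 (38.8% and 17.2%). Directions were followed only for the members picked for naming, so the lists here do not cover all called members. Of their called deposited changes, directions turned under quantile normalization for Otud1 (-0.30), Ube2v2 (-0.19) and Usp20 (-0.072) at P1. At P3 they turned for Uba3 (-0.11) and Ube2v2 (-0.0088). Among the same members, directions turned under median-of-ratios scaling for Otud1 (-0.42), Ube2d3 (-0.17), Ube2v2 (-0.078) and Usp20 (-0.079) at P1 and for Uba3 (-0.41) and Ube2d3 (-0.43) at P3. Some positive deposited changes that were not called became falls under both, among them Ube2d1 at both stages and Ube2d-ps at P1. With a pseudocount of 0.1, 1 member was lower at P1 as deposited (4.82% of all genes) and 13 higher relative to the median gene (17.4%). With a pseudocount of 1, 9 were lower at P3 relative to the median gene (25.9%). With adult replicates 5 to 7 only, 4 were lower at P3 as deposited (9.87% of all genes). With only P1 and P3 fitted, 0 fell from P1 to P3 as deposited (0.916% of all genes) and 1 relative to the median gene (1.41%). The cause of these shifts was not tested.

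Leaving out 1 library gave, as deposited, 67 to 71 higher and 0 to 1 lower at P1 (60.9% to 64.2% and 3.76% to 4.74% of all genes). At P3 it gave 64 to 66 and 2 to 4 (61.6% to 63.7% and 8.46% to 10.3%). For P3 against P1 it gave 0 to 1 and 0 to 5 (0.16% to 3.2% and 0.639% to 9.46%). Relative to the median gene it gave 5 to 8 and 6 to 8 at P1 (12.2% to 14.3% and 20.2% to 22.2% of all genes). At P3 it gave 15 to 17 and 9 to 14 there (17.9% to 20.5% and 26.4% to 27.8%). For P3 against P1 it gave 0 to 1 and 2 to 6 on that scale (0.362% to 2.81% and 3.42% to 10.8%). Leaving out P1 replicate 1 and P3 replicate 1 together was added after seeing the data. As deposited it gave 1 lower at P1 (3.77% of all genes) and 4 lower at P3 (10.3%). For P3 against P1 it gave 1 higher and 6 lower as deposited (5.3% and 11.5%). Relative to the median gene it gave 2 higher and 6 lower for P3 against P1 (4.57% and 12.7%). With P3 replicate 1 as the one P3 library, the member counts also differed from the main ones on both scales. Those counts rest on 1 library for the group and are not given here.

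Deviations of same-numbered libraries correlated at -0.51 (P1 replicate 1 with P3 replicate 1) to 0.37. Differently numbered libraries were not compared, so this range cannot decide whether replicate numbers pair the samples. With the replicate block, 1 member, Usp28, fell from P1 to P3 on each scale (1.14% of all genes as deposited and 3.4% relative to the median gene). Usp13 and Usp20 lost their calls on both scales, and Usp2 lost its call relative to the median gene. Of the 81 members with recovered reads, 7 had fewer than 10 reads in some library. These were not all adult libraries: Ube2ql1 was under 10 only in P1 replicate 4, with 7 reads.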
